A study of Mus musculus with 24 samples.

Results

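The insulin-like growth factor (IGF) system was measured in SHH-driven medulloblastomas as 10 genes, the ligands *Igf1* and *Igf2*, the receptors *Igf1r* and *Igf2r*, and the binding proteins *Igfbp2* to *Igfbp7*. Each gene was read from the probe set annotated to it alone, and each of the 10 had exactly 1 such probe set. They are 10 of 22180 genes with a probe set of their own. Tumors came from untreated P15 mice of C57BL/6 background, 6 *G-Smo* and 6 *M-Smo*. In *G-Smo* mice *hGFAP-Cre*, driven by a promoter active in neural stem cells, and in *M-Smo* mice *Math1-Cre*, driven by a promoter of committed granule neuron progenitors, activates *SmoM2*, so every tumor carries the same oncogenic allele of the SHH receptor component Smoothened. Whole tumors were dissected and frozen, and the RNA of each was hybridized to its own Affymetrix Mouse Gene ST array. The labels give genotype, treatment and a number per tumor, and no sex. In the 12 irradiated tumors values were given for 1019 unnamed probe sets, with 0 members among them, and these arrays were not used here.

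IGF1 and IGF2 are secreted growth factors that bind the tyrosine kinase IGF1R, which signals through insulin receptor substrates to PI3K, AKT and mTORC1. IGF2R carries no kinase and takes IGF2 to the lysosome, and the secreted binding proteins hold the ligands in the extracellular space, where proteases release them. In mice, IGF signalling acts together with SHH in the growth of granule neuron progenitors and of the medulloblastomas that arise from them.

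All values are log2 intensities on the scale of robust multi-array averaging (RMA), and all differences are log2, *G-Smo* minus *M-Smo*. The array medians lay between 6.38 and 6.42, and each of the 10 members was above the array median in all 12 tumors. Both genotypes carried the genes of the labelled tissue. The mean of 16 genes of SHH medulloblastoma and granule neuron progenitors (*Atoh1*, *Gli1*, *Ptch1* and others) was 11.12 to 11.23 in *G-Smo* and 11.03 to 11.17 in *M-Smo* tumors. *Prm1*, whose end is part of some Cre transgenes, read 10.1 to 10.5 in *G-Smo* and 5.19 to 5.76 in *M-Smo* tumors, so 12 of 12 arrays separated by their genotype label. The X-inactivation RNA *Xist* was high (12.5 to 12.8) in 5 of 6 *G-Smo* and in 2 of 6 *M-Smo* tumors and low (5.82 to 6.10) in the rest, so sex was unequal between the genotypes. The *G-Smo* tumor with low *Xist* was replicate 6.

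Among the IGF genes, the binding proteins *Igfbp4* and *Igfbp2* were lower in *G-Smo* than in *M-Smo* tumors, by 1.29-fold and 1.26-fold. The threshold was an adjusted p under 0.05 from limma, which shares the spread over all probe sets. Of the 10 members, 2 were lower, 0 were higher and 8 did not pass, where over all 41345 probe sets 2.56% passed, 1.29% as lower and 1.27% as higher. At an unadjusted p under 0.05 there were 3 members, *Igfbp5* being the third, and 18.9% of all probe sets. The 6 binding proteins all had differences below 0, with a median of -0.26. The median over the 10 members was -0.11 and that over all probe sets 0.0035. The 2 ligands and 2 receptors gave 0 calls in either direction with limma, 0 with an unmoderated test and 0 at an unadjusted p under 0.05. A second count used no model. For 2 members, *Igfbp4* and *Igfbp5*, every *G-Smo* tumor lay below every *M-Smo* tumor, as 3.46% of all probe sets were separated in one direction or the other. In bulk tumor RNA, fewer cells of a type and less RNA per cell cannot be told apart.

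**Figure D1:**
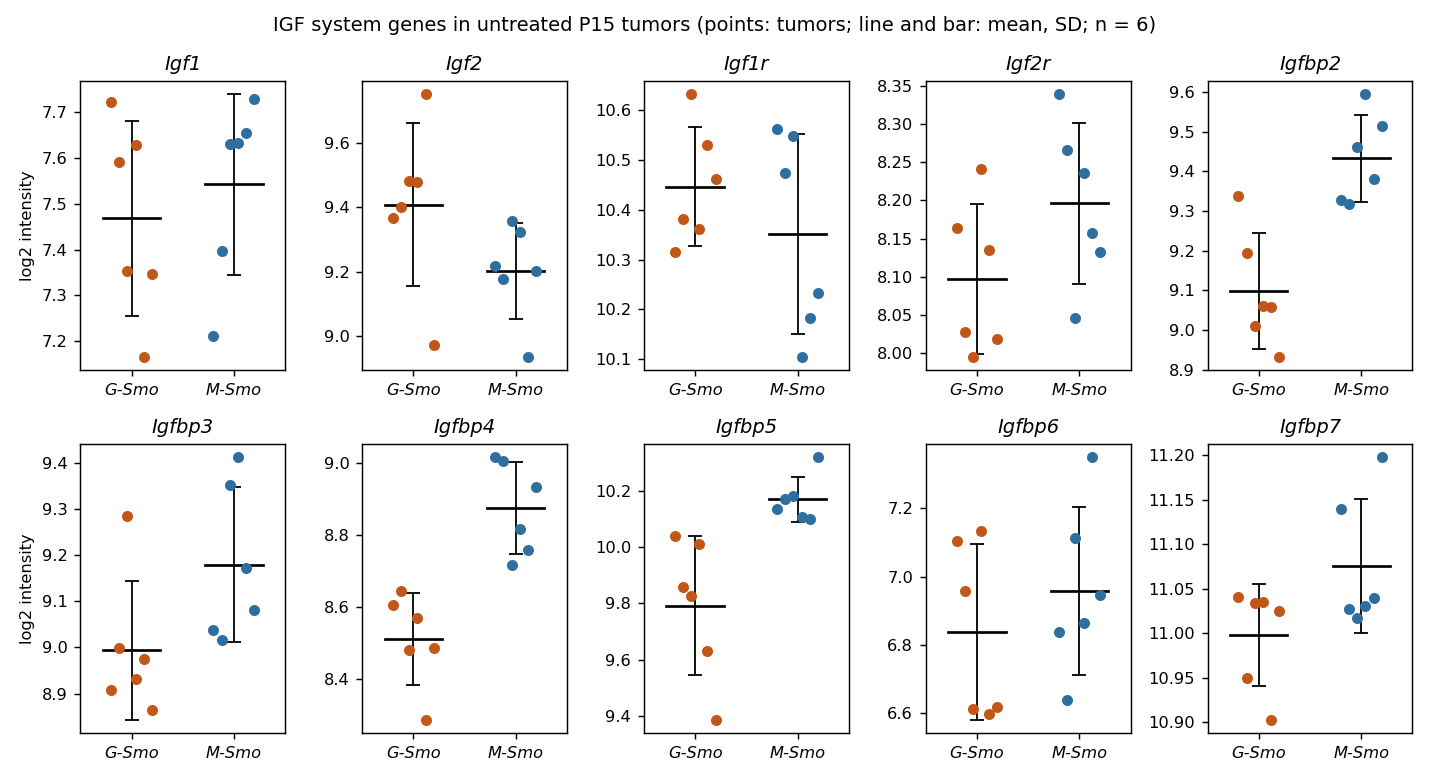
Log2 intensity (vertical axes, each with its own range) of the 10 IGF system genes in untreated *G-Smo* (orange) and *M-Smo* (blue) tumors, with 1 point per tumor and the mean and SD of 6 tumors in black. *Igfbp4* and *Igfbp5* show no overlap between the genotypes, *Igfbp2* overlaps by 1 *G-Smo* tumor, and the ligands and receptors overlap.

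The ligands came first. *Igf1*, which microglia and other cells secrete in the young brain, had a lowest, median and highest value of 7.17, 7.47 and 7.72 in *G-Smo* tumors and 7.21, 7.63 and 7.73 in *M-Smo* tumors. The 2 groups covered nearly the same range. The difference was -0.07 (95% interval -0.32 to 0.17, n = 6 per genotype, adjusted p = 0.771 from limma). *Igf2*, an imprinted gene of fetal tissues that meninges and choroid plexus keep active, read 8.97, 9.44 and 9.75 in *G-Smo* and 8.94, 9.21 and 9.36 in *M-Smo* tumors. In 5 of 6 *G-Smo* tumors it was above every *M-Smo* tumor, and replicate 6 of *G-Smo* lay below 5 of the *M-Smo* tumors. The difference of 0.21 (interval -0.04 to 0.45) did not pass (adjusted p = 0.350 from limma), nor did it without that tumor (0.29, adjusted p = 0.145). That tumor was also the only *G-Smo* tumor with low *Xist*. With the level of sex-linked genes as a covariate the *Igf2* difference was 0.09 (limma adjusted p = 0.757). Over tumors with high *Xist* it was 0.29 (limma adjusted p = 0.408), and between those with low *Xist*, 1 *G-Smo* and 4 *M-Smo*, it was -0.23.

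Among the receptors, *Igf1r*, the signalling receptor of both ligands, read 10.3, 10.4 and 10.6 in *G-Smo* and 10.1, 10.4 and 10.6 in *M-Smo* tumors. The *M-Smo* tumors fell into 3 at 10.5 to 10.6 and 3 at 10.1 to 10.2, and the *G-Smo* tumors lay at 10.3 to 10.6, overlapping the upper 3. The difference was 0.10 (interval -0.11 to 0.30, adjusted p = 0.624 from limma). *Igf2r*, the clearance receptor of IGF2 and also a receptor for mannose-6-phosphate, read 7.99, 8.08 and 8.24 in *G-Smo* and 8.05, 8.20 and 8.34 in *M-Smo* tumors. In 3 of 6 *G-Smo* tumors it lay below every *M-Smo* tumor, and the other *G-Smo* tumors lay among them. The difference was -0.10 (interval -0.24 to 0.04, adjusted p = 0.440 from limma).

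*Igfbp4*, which encodes a binding protein that is cut by the protease PAPP-A, read 8.29, 8.53 and 8.64 in *G-Smo* and 8.71, 8.87 and 9.02 in *M-Smo* tumors. The groups did not overlap, with a gap between the highest *G-Smo* and the lowest *M-Smo* tumor that was small beside the spread within either. The genotypes differed by -0.36 ± 0.08 (standard error, limma adjusted p = 0.0300), 1.29-fold higher in *M-Smo*. *Igfbp2*, the binding protein of fetal brain and choroid plexus, read 8.93, 9.06 and 9.34 in *G-Smo* and 9.32, 9.42 and 9.59 in *M-Smo* tumors. In 5 of 6 *G-Smo* tumors it lay below every *M-Smo* tumor, and replicate 1 of *G-Smo* lay within the *M-Smo* range. The genotypes differed by -0.33 ± 0.08 (standard error, limma adjusted p = 0.0421), 1.26-fold higher in *M-Smo*.

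*Igfbp5*, which encodes a binding protein that attaches to extracellular matrix, had the largest difference of the 10 members, but more spread among *G-Smo* tumors. It read 9.39, 9.84 and 10.0 in *G-Smo* and 10.1, 10.2 and 10.3 in *M-Smo* tumors. The groups did not overlap. The SD was 0.25 in *G-Smo* and 0.08 in *M-Smo* tumors, and replicates 5 and 6 of *G-Smo* were the lowest. The difference of -0.38 (standard error 0.10, 1.30-fold higher in *M-Smo*) had an adjusted p of 0.0732 from limma and did not pass.

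These 3 binding proteins had the largest genotype differences of the 10 members, and the 250 bases before their annotated starts are shown to set their upstream sequence side by side. They were taken from RefSeq on build GRCm38.p6, which matched 10 of 10 members, and run 5′ to 3′ in the direction of transcription. Capitals mark matches to 3 motifs, each searched on both strands. The motif TATAAA is the usual box for the core promoter factor TBP, the motif TATTTAA is a variant of that box, and the motif GGGCGG is the GC box that SP1 binds. *Igfbp2* has 2 annotated starts, and the more upstream is shown (chr1:72824230-72824479, plus strand). *Igfbp5* (chr1:72874866-72875115, minus strand) is the next gene on the same chromosome in the RefSeq table. *Igfbp4* lies elsewhere (chr11:99040994-99041243, plus strand), beside *Top2a*.
Igfbp2: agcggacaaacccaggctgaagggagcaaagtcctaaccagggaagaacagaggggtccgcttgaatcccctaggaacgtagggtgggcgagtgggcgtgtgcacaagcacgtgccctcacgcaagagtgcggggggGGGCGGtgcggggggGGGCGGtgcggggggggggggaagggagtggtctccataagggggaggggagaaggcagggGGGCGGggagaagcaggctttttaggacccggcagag
Igfbp4: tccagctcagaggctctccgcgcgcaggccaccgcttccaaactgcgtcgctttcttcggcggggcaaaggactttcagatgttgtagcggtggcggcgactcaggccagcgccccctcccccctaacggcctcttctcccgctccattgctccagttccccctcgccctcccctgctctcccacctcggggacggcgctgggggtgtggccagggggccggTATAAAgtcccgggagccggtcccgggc
Igfbp5: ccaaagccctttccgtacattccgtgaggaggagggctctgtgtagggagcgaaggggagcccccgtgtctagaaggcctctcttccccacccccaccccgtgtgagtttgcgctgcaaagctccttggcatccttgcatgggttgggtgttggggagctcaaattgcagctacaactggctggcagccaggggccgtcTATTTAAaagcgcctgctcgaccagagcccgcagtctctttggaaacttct

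*Igfbp2* holds GGGCGG 3 times, starting 113, 98 and 37 bases before the start, and neither of the other motifs. *Igfbp4* holds TATAAA starting 28 bases before the start, and *Igfbp5* holds TATTTAA starting 51 bases before it. The GC content of these windows was 67.2%, 69.2% and 58.8% for *Igfbp2*, *Igfbp4* and *Igfbp5*, against a median of 52.4% over all promoter windows. Of 32851 windows of this length in the table, 32.7% hold GGGCGG, 12.4% TATAAA and 4.18% TATTTAA. Among the 10 members, taken at their most upstream start, 4 hold GGGCGG (*Igf1r*, *Igf2r*, *Igfbp2*, *Igfbp7*), 2 hold TATAAA (*Igfbp4*, and *Igfbp6* on the reverse strand) and 1 holds TATTTAA. GACCACCCA, the consensus of the SHH pathway's GLI factors, is in 0 of the 10 and in 0.225% of all windows. These are matches of letters in the shown windows only.

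The other binding proteins did not pass. *Igfbp3*, the main carrier of IGFs in blood, read 8.86, 8.95 and 9.28 in *G-Smo* and 9.02, 9.13 and 9.41 in *M-Smo* tumors. In 5 of 6 *G-Smo* tumors it lay below every *M-Smo* tumor, and replicate 3 of *G-Smo* stood within the *M-Smo* range. The difference was -0.19 (interval -0.38 to 0.01, adjusted p = 0.290 from limma). *Igfbp6*, which prefers IGF2 over IGF1, read 6.60, 6.79 and 7.14 in *G-Smo* and 6.64, 6.91 and 7.35 in *M-Smo* tumors. Within both genotypes it was more variable than any other member, with SDs of 0.26 and 0.25, and its difference was -0.12 (interval -0.41 to 0.17, adjusted p = 0.678 from limma). *Igfbp7*, a low-affinity binding protein of vessel walls, read 10.9, 11.0 and 11.0 in *G-Smo* and 11.0, 11.0 and 11.2 in *M-Smo* tumors. It was the least variable member, with a difference of -0.08 (interval -0.19 to 0.04, adjusted p = 0.455 from limma).

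**Figure D2:**
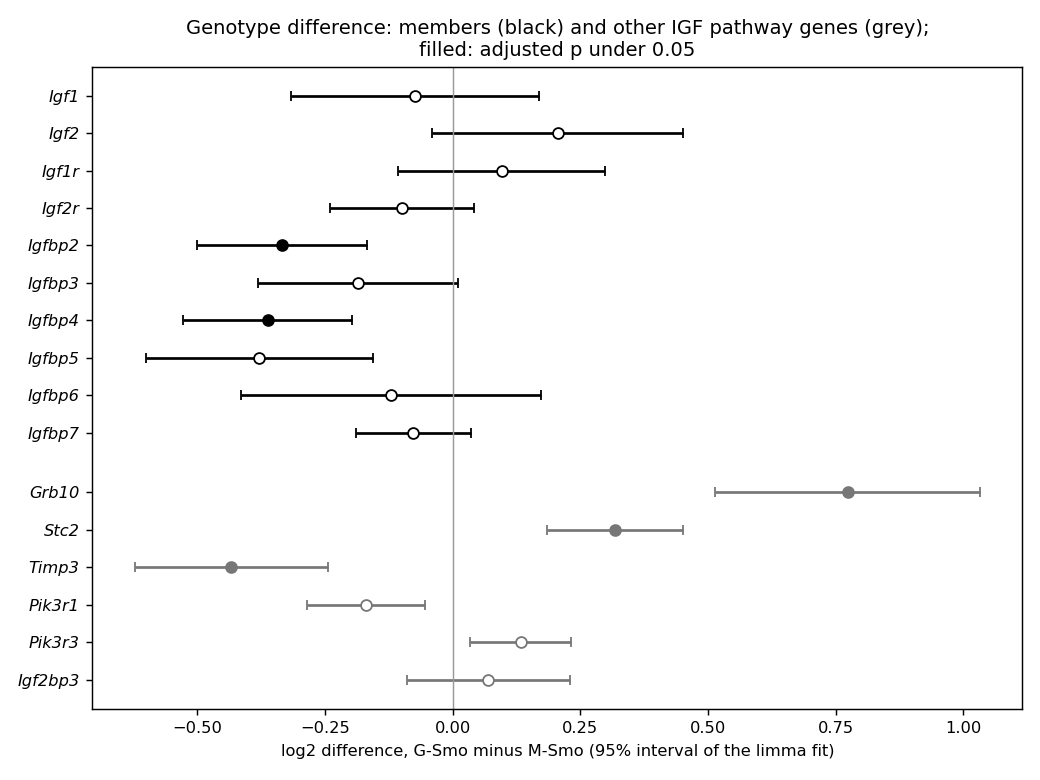
Log2 difference, *G-Smo* minus *M-Smo* (horizontal axis), with the 95% interval of the limma fit over 6 tumors per genotype, for the 10 members (black) and other genes of the pathway (grey), filled where the adjusted p was under 0.05. *Igfbp2* and *Igfbp4* lie below 0 with their intervals, at -0.33 and -0.36, and *Grb10* lies at 0.77.

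Both calls were narrow. When each tumor was left out in turn, the *Igfbp4* difference stayed between -0.39 and -0.32, and its adjusted p ran from 0.0319 to 0.0667. It was at or above 0.05 without replicate 3, 5 or 6 of *G-Smo* and without replicate 1, 2 or 6 of *M-Smo*. The *Igfbp2* difference stayed between -0.38 and -0.30 with an adjusted p of 0.0240 to 0.0938, and the call held only without replicate 1 of *G-Smo* or replicate 2 of *M-Smo*. *Igfbp5* passed when probe sets below the 40th percentile of mean intensity were left out (adjusted p = 0.0405), when only probe sets with 1 symbol were tested (0.0468) and when limma used its trend and robust options (0.0458). With the level of sex-linked genes as a covariate, the differences of these 3 genes were larger in size. They were -0.37 for *Igfbp2*, -0.42 for *Igfbp4* and -0.51 for *Igfbp5*, against -0.33, -0.36 and -0.38 without it. Their adjusted p was 0.0847, 0.0501 and 0.0446 from limma, where 1.02% of all probe sets passed. Over the 5 *G-Smo* and 2 *M-Smo* tumors with high *Xist* they were -0.29, -0.46 and -0.36, and none passed (adjusted p = 0.401, 0.245 and 0.358), where 0.0484% of all probe sets did.

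Stromal genes moved in the same direction as the binding proteins. *Dcn*, which encodes the matrix proteoglycan decorin of fibroblasts and meninges, read 8.96, 9.41 and 9.67 in *G-Smo* and 10.0, 10.2 and 10.3 in *M-Smo* tumors, without overlap. It differed by -0.79 ± 0.11 (standard error, limma adjusted p = 0.00399). Over the tumors with high *Xist* it was -0.73 and did not pass (adjusted p = 0.135). Among 20 more fibroblast and meningeal genes, *G-Smo* tumors had 10 lower and 0 higher, and their mean was 7.32 to 7.67 in *G-Smo* and 7.78 to 8.18 in *M-Smo* tumors. Of 11 macrophage genes, 3 were lower (*Mrc1*, *Lyve1* and *Pf4*, markers of border macrophages) and 0 higher, with means of 5.61 to 5.87 and 5.90 to 6.11. These macrophage means lay below the array medians of 6.38 to 6.42. Neither list overlapped between the genotypes (two-sided exact permutation test over tumors, p = 0.00216, the smallest that 6 against 6 can give, adjusted p = 0.0101 over 14 lists). All lists were chosen with earlier results of these data known, so the exact p-values in this paragraph describe the chosen genes and are not independent support. Of 15 microglial genes 0 passed in either direction (0 with an unmoderated test, 2 at an unadjusted p under 0.05), with means of 7.68 to 8.07 and 7.73 to 8.00 (exact p = 0.983). The 2 microglial genes went opposite ways, *P2ry13* at -0.34 and *Fcrls* at 0.23, and 7 of the 15 were below 0, so the mean joined opposite signs. Other lists held lower genes too. Of 11 oligodendrocyte genes 4 were lower, with means of 7.85 to 8.56 and 8.66 to 9.78 that did not overlap either (exact p = 0.00216, adjusted p = 0.0101), and of 10 astrocyte genes 4 were lower (exact p = 0.00433, adjusted p = 0.0152). Of endothelial genes 1 of 14 was lower (exact p = 0.0325, adjusted p = 0.0568) and of pericyte and smooth muscle genes 1 of 12 (exact p = 0.0173, adjusted p = 0.0485). Of 11 choroid plexus and ependyma genes 0 passed with limma and 0 with an unmoderated test, 6 had an unadjusted p under 0.05 and 9 were below 0, with a median of -0.60 and means of 6.42 to 7.31 and 6.48 to 8.17 (exact p = 0.0260, adjusted p = 0.0519). Among them was *Ttr*, which encodes the transthyretin of choroid plexus. Its lowest, median and highest values were 6.14, 6.34 and 11.9 in *G-Smo* and 6.74, 12.3 and 12.9 in *M-Smo* tumors. The difference was -3.89 (limma adjusted p = 0.110). In these lists 0 genes were higher. The mean of the 16 SHH medulloblastoma and granule neuron progenitor genes went the other way, by 0.07 (exact p = 0.0216, adjusted p = 0.0505). Of these, 1 was higher with limma (*Hhip*, 0.41, adjusted p = 0.0141) and 0 lower, and 6 were below 0. At an unadjusted p under 0.05 there were 8, in both directions. With *Dcn* in the model the genotype difference of *Igfbp2* was 0.11 ± 0.13 (standard error), that of *Igfbp5* 0.21 ± 0.18 and that of *Igfbp4* -0.30 ± 0.19. In that fit 11 of 41344 probe sets (0.0266%) passed, and 0 of the 3 genes. With the mean of the fibroblast genes in the model the values were -0.14 ± 0.16, 0.02 ± 0.19 and -0.26 ± 0.17, and 16 probe sets (0.0387%) passed, 0 of these 3 among them. Because *Dcn* itself separates the genotypes, the standard errors of these fits were larger than the 0.08 to 0.10 without it.

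**Figure D3:**
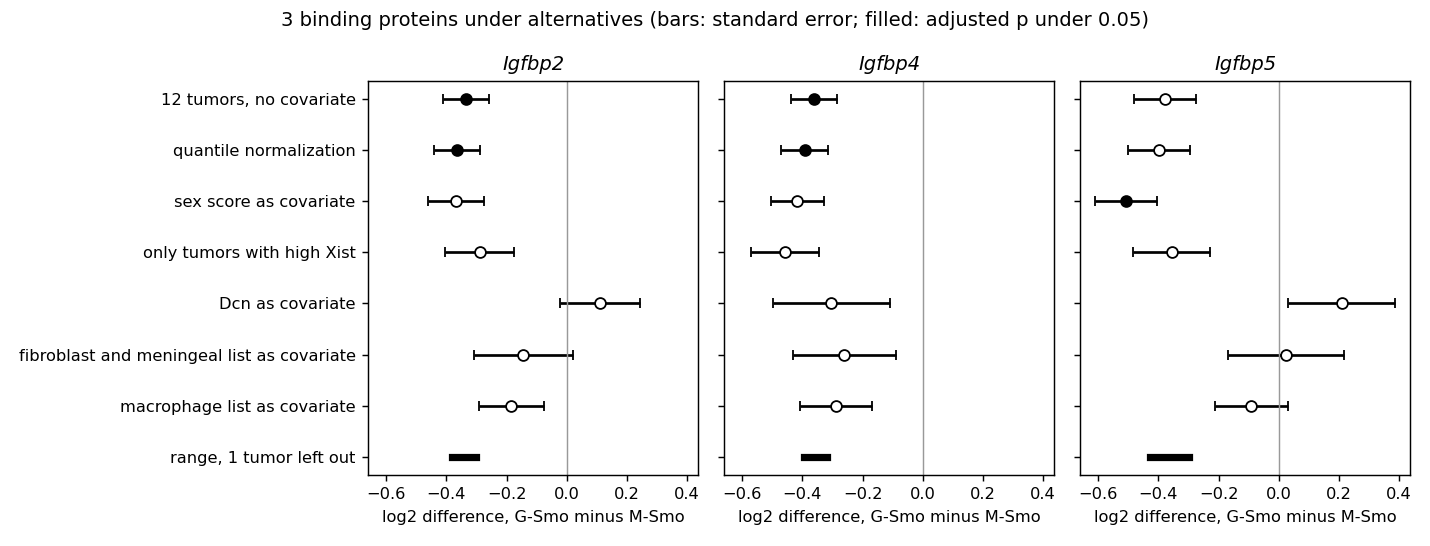
Log2 difference, *G-Smo* minus *M-Smo* (horizontal axis), of *Igfbp2*, *Igfbp4* and *Igfbp5* over the 12 tumors, under other normalization, with covariates, in the tumors with high *Xist*, and as the range when 1 tumor was left out. Bars are standard errors and filled points had an adjusted p under 0.05. With *Dcn* as a covariate the values were 0.11 for *Igfbp2*, 0.21 for *Igfbp5* and -0.30 for *Igfbp4*, and none of them passed.

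Whether the members followed *Dcn* from tumor to tumor was then asked within the genotypes, after each value had been centred on its genotype's mean. *Igfbp2* followed it most closely, with Pearson r = 0.85 (exact permutation p = 0.00209 over all orders of the tumors within the genotypes) and Spearman rho = 0.91 (exact p = 0.000411). Within *G-Smo* tumors r was 0.86 and within *M-Smo* tumors 0.84, and r was 0.78 without the 2 tumors farthest from the median of *Dcn*, replicates 1 and 6 of *G-Smo*. The limma slope of *Igfbp2* was 0.56 ± 0.15 (standard error) per log2 unit of *Dcn*, and across all probe sets it did not pass (adjusted p = 0.749). In that fit 0 of 41344 probe sets (0%) passed, with limma and with an unmoderated test alike, and 5.51% had an unadjusted p under 0.05, as did 3 of the 10 members, *Igf2*, *Igfbp2* and *Igfbp5*.

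*Igfbp5* came next with r = 0.79 (exact p = 0.0111) and rho = 0.61 (exact p = 0.0525), but r fell to 0.31 without the same 2 tumors, so the relation rested on them. Within *G-Smo* tumors r was 0.92 and within *M-Smo* tumors 0.17, a difference that was not tested. *Igf2* had r = 0.62 (exact p = 0.0765) and rho = 0.41 (exact p = 0.221), with r = 0.47 without those tumors. Its slope of 0.66 per log2 unit of *Dcn* was 0.19 without replicate 6 of *G-Smo* alone and 0.97 without replicate 1 alone, and that of *Igfbp5* went from 0.74 to 0.46 without replicate 6 alone. The r of *Igf2* was above 0 within the genotypes, while *G-Smo* tumors had less *Dcn* and, in 5 of 6, more *Igf2*. *Igfbp4*, the member with the smallest adjusted p between genotypes, had no relation to *Dcn* past the test within them (r = 0.11, exact p = 0.739, rho = -0.01, exact p = 0.971). That r joined opposite signs, 0.39 within *G-Smo* and -0.36 within *M-Smo* tumors, a difference that was not tested. Of the 10 slopes on *Dcn*, 9 were above 0, *Igf1r* being the exception (r = -0.30, exact p = 0.292, rho = -0.39, exact p = 0.210), and the others had r of 0.04 to 0.53.

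**Figure D4:**
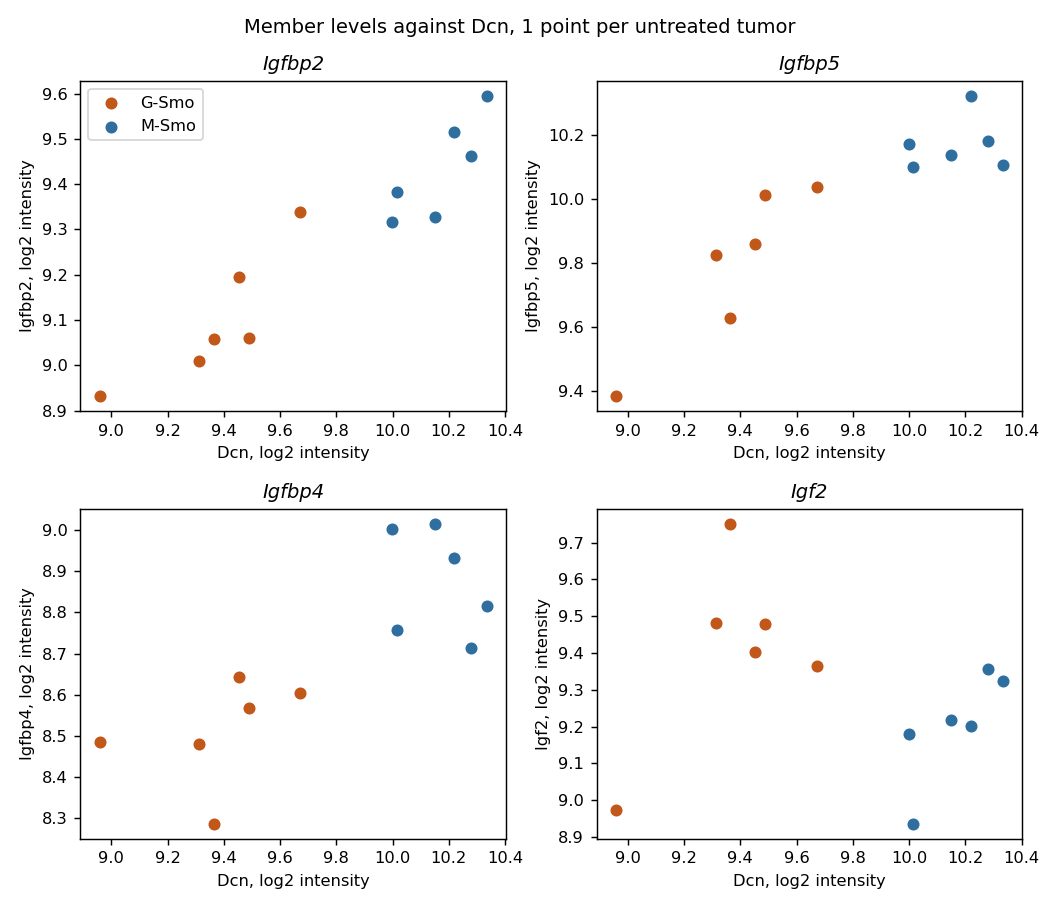
Log2 intensity of *Igfbp2*, *Igfbp5*, *Igfbp4* and *Igf2* (vertical axes) against that of *Dcn* (horizontal axis), with 1 point per untreated tumor, *G-Smo* in orange and *M-Smo* in blue. The points of *Igfbp2* rise with *Dcn* in both genotypes (r = 0.86 and 0.84) and those of *Igfbp5* among *G-Smo* tumors (0.92). *Igfbp4* has r = 0.39 among *G-Smo* and -0.36 among *M-Smo* tumors, and 0.11 over both after centring.

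The members were also set against the mean of 6 marker lists, which with *Dcn* makes 70 relations, and 0 of them passed across all probe sets. For 5 lists 0 probe sets (0%) passed with limma and 0 with an unmoderated test, with 5.25% to 8.25% at an unadjusted p under 0.05. For choroid plexus and ependyma 27 probe sets (0.0653%) passed, and 0 members were among them. The exact p-values of r and rho, here and for *Dcn*, were not adjusted over the 70 relations. *Igf1* had its highest r with the microglial genes (r = 0.75, exact p = 0.00814, rho = 0.71, exact p = 0.0147, and r = 0.67 without the 2 farthest tumors, adjusted p of the slope = 0.513). Within *M-Smo* tumors this r was 0.95 and within *G-Smo* tumors 0.56. With the macrophage genes *Igf1* had r = 0.70 (exact p = 0.0214, rho = 0.70, exact p = 0.0217, r = 0.59 without the 2 farthest), 0.91 within *G-Smo* and 0.37 within *M-Smo* tumors. *Igfbp2* also followed the microglial genes (r = 0.81, exact p = 0.00407, rho = 0.71, exact p = 0.0169, r = 0.74 without the 2 farthest). With the choroid plexus and ependyma genes it had r = 0.55 (exact p = 0.0367, rho = 0.70, exact p = 0.0170, r = 0.31 without the 2 farthest). With the macrophage genes it had r = 0.54 (exact p = 0.103, rho = 0.66, exact p = 0.0322). *Igf1r* ran the other way with microglial genes (r = -0.61, exact p = 0.0582, rho = -0.66, exact p = 0.0342). The macrophage genes also had high values with *Igfbp5* (r = 0.73, exact p = 0.0217, rho = 0.77, exact p = 0.00882) and *Igfbp6* (r = 0.70, exact p = 0.0210, rho = 0.72, exact p = 0.0179). Their mean intensity lay below the array median in every tumor, and each gene of the list had equal weight. *Igf2* had r = 0.60 with the choroid plexus and ependyma genes (exact p = 0.00164, rho = 0.74, exact p = 0.00568, r = 0.74 without the 2 farthest). Both tumors left out there were *M-Smo*, replicates 2 and 4. Among *G-Smo* tumors (r = 0.88) replicate 5 was the highest and replicate 6 the lowest in both measures, and r without them was not computed. *Igf2* also had r = 0.69 with the fibroblast genes (exact p = 0.0205, rho = 0.47, exact p = 0.145), which fell to 0.07 without replicate 6 of *G-Smo* and replicate 5 of *M-Smo*. The part of these cell types in the members' levels was not tested.

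**Figure D5:**
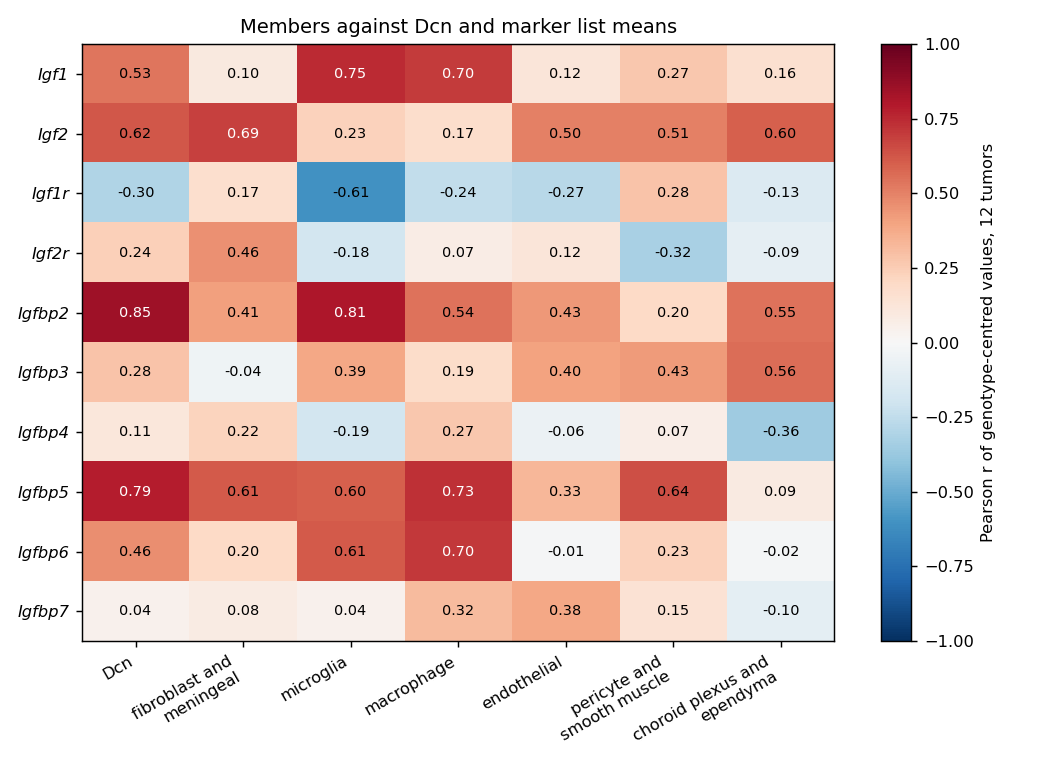
Pearson r between each member (rows) and *Dcn* or the mean of a marker list (columns) over 12 untreated tumors, after centring on the genotype means, with red above and blue below 0. The darkest cells are *Igfbp2* with *Dcn* (0.85) and with microglial genes (0.81).

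Among themselves the members formed 45 pairs, 29 with r above 0 and a median r of 0.08 after centring on genotype. The highest r was that of *Igf1* and *Igfbp6* (0.75, exact p = 0.0126, rho = 0.75, exact p = 0.0116, and 0.81 without the 2 tumors farthest in *Igf1*), followed by *Igf1* and *Igfbp2* (0.71, exact p = 0.0151, rho = 0.74, exact p = 0.0115). *Igf1* and its receptor *Igf1r* gave the lowest r (-0.70, exact p = 0.0120, rho = -0.71, exact p = 0.0102, and -0.64 without the 2 farthest), with -0.82 in *G-Smo* and -0.68 in *M-Smo* tumors. The slopes of these 3 pairs, with *Igf1* as the covariate, had adjusted p of 0.612, 0.676 and 0.670 across all probe sets. These 3 were picked as extremes of the 45 pairs, and the exact p-values of pairs were not adjusted for that. *Igfbp2* and its chromosomal neighbour *Igfbp5* had r = 0.58 (exact p = 0.0884, rho = 0.57, exact p = 0.0740). *Igfbp2* and *Igfbp4*, the called members, had r = 0.09 (exact p = 0.779, rho = -0.03, exact p = 0.923), with 0.53 in *G-Smo* and -0.47 in *M-Smo* tumors.

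Over the same 12 centred values, the genes most like each member were picked among 13554 named genes, as a description over few tumors. They are the highest of many values of r, and how high r would run among unrelated genes was not tested. *Igf1* was most like *Supv3l1* (r = 0.96), a mitochondrial RNA helicase, *Cd68* (0.96), a lysosomal protein of microglia and macrophages, and *Snx12* (0.95). *Igf2* was most like *Ccndbp1* (0.85), *Itih5* (0.83) and *Casd1* (0.83). *Igf1r* was most like *Zdhhc20* (0.94), *Arsg* (0.92) and *Mtmr3* (0.91), and *Igf2r* like the neuronal genes *Nptx1* (0.94), *Mapk8ip1* (0.89) and *Gabra2* (0.86). For the binding proteins the closest were *Pgm2* for *Igfbp2* (0.94), *Neurl3* for *Igfbp3* (0.90), *Def8* for *Igfbp4* (0.90), *Tst* for *Igfbp5* (0.95), *Zfp707* for *Igfbp6* (0.93) and *Nxph1* for *Igfbp7* (0.87). *Igfbp5* was next most like *Oxtr* (0.94), the oxytocin receptor, and *Il33* (0.94), a cytokine of glia.

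Of 16 other measured genes of the IGF and insulin system, 1 passed. *Grb10*, an imprinted adaptor that binds and dampens IGF1R and the insulin receptor, read 10.3 to 10.7 in *G-Smo* and 9.36 to 10.1 in *M-Smo* tumors. The groups did not overlap, and they differed by 0.77 ± 0.12 (standard error, limma adjusted p = 0.00874), larger in size than that of any of the 10 members. It passed without each tumor in turn (highest adjusted p = 0.0257) and beside the sex-linked covariate (0.59, adjusted p = 0.0304), but not over the tumors with high *Xist* alone (0.57, adjusted p = 0.227). The adaptors *Irs1* (0.16, adjusted p = 0.135) and *Irs2* (-0.14, adjusted p = 0.201) and the insulin receptor *Insr* (0.08, adjusted p = 0.598) did not pass. *Igfbp1*, the neighbour of *Igfbp3*, was below the array median in 12 of 12 tumors, at 5.01 to 5.66. The median difference over the 16 was 0.04.

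Of 13 genes of binding protein proteases and their inhibitors, 1 was lower, 1 was higher and 11 did not pass, with a median of -0.06. *Stc2*, a stanniocalcin that inhibits PAPP-A, read 7.06 to 7.29 in *G-Smo* and 6.65 to 6.93 in *M-Smo* tumors. It was higher in *G-Smo* by 0.32 ± 0.06 (standard error, limma adjusted p = 0.0223). *Timp3*, a metalloprotease inhibitor of the matrix, read 9.08 to 9.50 and 9.53 to 9.97, or -0.43 ± 0.09 between them (standard error, limma adjusted p = 0.0256). Neither overlapped. The *Stc2* call was lost without replicate 5 of *G-Smo* (adjusted p = 0.0569), and that of *Timp3* without replicate 2 or 5 of *G-Smo* or replicate 4 of *M-Smo* (highest adjusted p = 0.0613). With the sex-linked covariate *Stc2* had an adjusted p of 0.0557 and *Timp3* one of 0.0470, and over the tumors with high *Xist* neither passed (adjusted p = 0.238 and 0.241). The protease genes themselves, *Pappa* (-0.02, adjusted p = 0.933) and *Pappa2* (-0.15, adjusted p = 0.556), did not pass, nor did *Stc1* (-0.20, adjusted p = 0.329).

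Downstream of the receptor, 0 of 26 measured genes of PI3K, AKT and mTORC1 passed in limma, 1 passed in an unmoderated test, and 6 had an unadjusted p under 0.05. The smallest p-values belonged to *Pik3r1* (-0.17, adjusted p = 0.114) and *Pik3r3* (0.13, adjusted p = 0.142), regulatory subunits of PI3K, and *Pik3r3* was the 1 gene that passed the unmoderated test. The list's median difference was 0.02. *Igf2bp3*, the measured member of 3 genes for proteins that bind *Igf2* mRNA, differed by 0.07 (adjusted p = 0.655 from limma).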

How the data were processed

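The authors analysed the arrays with the Partek Genomics Suite, and deposited 1 log2 intensity per probe set and array, made by RMA (background correction, a common distribution for all arrays, 1 summary of the probes). Versions and an annotation build were not given in the sources used here. No further normalization or filter was applied. The platform annotation gave 1 symbol to 23521 probe sets, and RefSeq served for names, neighbours and promoters. Genotypes were compared with limma 3.58.1 in R 4.3.3 (lmFit, eBayes), 6 tumors against 6, two-sided, with Benjamini-Hochberg adjustment over 41345 probe sets and a threshold of 0.05. Slopes on *Dcn*, on a list mean (mean of standardized values) or on a member were fitted with genotype in the model. The methods name a 1-way test, run here as an unmoderated alternative. Correlations of genotype-centred values have exact permutation p-values over all orders within genotypes. The fits were tested on simulated data. Figures were drawn in Python 3.11.15 with matplotlib 3.10.9.

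The 10 members and all lists were chosen with earlier results of these data known. The named genes are the members, the genes of each other IGF list past the threshold or else the 2 with the smallest p, and the 3 genes most like each member (probe sets with 1 symbol at or above the 40th percentile, without predicted, numbered or small RNA genes). *Irs1*, *Irs2*, *Insr*, *Igfbp1*, *Pappa*, *Pappa2* and *Stc1* were added after their values were seen. Nothing states that tumors of a group came from separate litters, so the p-values measure the spread between these tumors. The number of arrays limits the precision. Columns of other series numbered 0.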

Additional observations from a re-analysis of the deposited data

Results flagged for a closer look

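Of 20 sets of 6 tumors (10 members in 2 genotypes), 2 held a tumor whose gap to its nearest neighbour was large beside the set's range by Dixon's ratio, and chance alone flags about 1 in 20. *Igfbp3* in replicate 3 of *G-Smo* read 9.28, with the next *G-Smo* tumor at 9.00. *Igfbp5* in replicate 6 of *M-Smo* read 10.32, with the next *M-Smo* tumor at 10.18. Without the first the *Igfbp3* difference was -0.24 (adjusted p = 0.164 from limma), and without the second the *Igfbp5* difference was -0.35 (adjusted p = 0.127 from limma).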

How the results depend on the processing

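Against 1057 probe sets called between genotypes (532 lower, 525 higher), 1881 passed with the filter at the 40th percentile, 420 with a sex-linked score in the model, 20 over the tumors with high *Xist*, 11 with *Dcn*, 16 with the fibroblast and meningeal list and 19 with the macrophage list as a covariate, and 367 to 942 without 1 tumor. The unmoderated form of the methods' 1-way test, run here at the same threshold, called 1105. The authors' own comparison of these genotypes gave far fewer significant probe sets, and the reason for that gap was not tested. The *Xist* subset and the macrophage covariate were chosen after seeing the data. The split was 658 lower and 430 higher after quantile normalization and 683 and 462 over probe sets with 1 symbol. The replicate number as a block left 113 calls and neither *Igfbp2* nor *Igfbp4* (adjusted p = 0.149 and 0.0671), but same-numbered tumors deviated with r of only -0.14 to 0.11, so the numbers were not taken as pairs. Under median centring, quantile normalization, the filter, 1 symbol, trend and robust settings, the unmoderated test and the block, every member kept its direction. Directions turned with *Dcn* as a covariate for *Igf1* (0.37), *Igf1r* (-0.10), *Igfbp2* (0.11), *Igfbp5* (0.21) and *Igfbp6* (0.35), with the fibroblast list for *Igf2r* (0.068), *Igfbp5* (0.024) and *Igfbp6* (0.059), with the macrophage list for *Igf1* (0.23) and *Igfbp6* (0.26), and over tumors with high *Xist* for *Igf1* (0.022), and none of these values passed. For the slopes on *Dcn*, 0 probe sets passed (0 to 0 without 1 tumor), against 1034 with no genotype term, where *Igfbp2* (0.45) and *Igfbp5* (0.52) passed and *Igf2* turned (-0.11), and 1 with *Lum* in place of *Dcn*. Slopes also turned with *Lum* for *Igf1r* (0.16), with the fibroblast list for *Igf1r* (0.077) and *Igfbp3* (-0.018), with the sex-linked score for *Igfbp4* (-0.074) and *Igfbp7* (-0.098), without the 2 tumors farthest in *Dcn* for *Igf2r* (-0.048) and *Igfbp4* (-0.074), and without 1 tumor for *Igfbp4* (-0.021 to 0.16) and *Igfbp7* (-0.034 to 0.11). The cause of these turns was not tested. Other probe sets of the members were not run, since each member has 1.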
